A study of Mus musculus with 6 samples.

Results

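Integrins and the genes of focal adhesions were examined in the LLC line, grown from the Lewis lung carcinoma of the mouse, in which Cas9 had been directed at Calr, the gene of the ER chaperone calreticulin. The set was 39 gene symbols of the 55291 in the expression table, chosen by name with earlier results of these data known. It held 18 integrin subunits (11 alpha and 7 beta), 19 cytoplasmic adhesion genes, and the surface receptors Cd44 and L1cam. Calr KO cells received plasmids for Cas9 and a guide RNA against Calr, and control cells, labelled WT for genotype, received Cas9 with a control guide; both were otherwise untreated. Each population was kept for 10 days, seeded into 3 wells and collected after 48 hours of growth, which gave 3 Calr KO and 3 control libraries under 1 batch label. The wells of a group came from 1 edited population and no clone was isolated, so p-values measure the spread between wells and not between independent knockouts.

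Integrins are receptors made of an alpha and a beta chain that bind the extracellular matrix outside the cell and, through talin and kindlin on the beta tail, actin filaments inside it. Clustered integrins gather linkers (talin, vinculin, alpha-actinin, filamin), the kinases FAK and SRC, the pseudokinase ILK and adaptors (paxillin, p130Cas) into focal adhesions, which anchor tumour cells and guide their migration. Calreticulin has been reported to bind the GFFKR motif that alpha chains carry just inside the membrane, its amount has been linked to vinculin levels and adhesion in fibroblasts, and at the cell surface it takes part in adhesion disassembly induced by thrombospondin.

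The codons for this membrane-proximal motif are shown because the motif is where alpha chains have been described to meet calreticulin, and because the alpha genes differ in it. The sequences were read from GENCODE M21 transcripts (GRCm38), 5′ to 3′ on the coding strand, with the motif position in capitals and the preceding codons in lower case. Each lies in coding sequence, and the coordinates span the intron between the exons that hold it.
Itga1 (chr13:114960117-114965600, minus strand): aagattGGATTCTTCAAAAGG
Itga2 (chr13:114836548-114837095, minus strand): aagctcGGCTTCTTCAAAAGA
Itga11 (chr9:62782047-62782645, plus strand): aagctcGGTTTTTTTAAAAGT
Itga3, one coding transcript (chr11:95045746-95046923, minus strand): aagtgtGACTTCTTTAAGCCG
Itga3, other coding transcripts (chr11:95046573-95046923, minus strand): aagtgcGGCTTCTTCAAGCGA
Itga6, one coding transcript (chr2:71849504-71855871, plus strand): aagtgtGGATTCTTTAAGCGC
Itga6, other coding transcript (chr2:71849504-71853551, plus strand): aagtgtGGCTTCTTCAAGAGA
Itga7 (chr10:128954069-128957638, plus strand): aagctgGGATTCTTCAAGCGG
Itga5 (chr15:103345335-103345954, minus strand): aagctcGGCTTCTTCAAACGT
Itga8 (chr2:12109184-12110977, minus strand): aagtgtGGATTCTTTGATAGA
Itgav (chr2:83803000-83803257, plus strand): aggatgGGCTTTTTCAAACGT
Itga4 (chr2:79325692-79326537, plus strand): aaggctGGATTCTTTAAAAGA
Itga9 (chr9:118887881-118897251, plus strand): aagatgGGCTTCTTCCGCAGA

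Of the 11 alpha genes, 8 had a transcript that codes for the exact GFFKR residues, and Itga8, Itga9 and Itga11 did not. In all 13 distinct stretches, read from 17 complete coding transcripts, an exon junction falls after the first 3 bases shown. For Itga3 and Itga6 the downstream exon is alternative, and of the Itga3 forms one lacks the exact motif. The values are gene totals, so the share of each form was not measured.

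Calr itself was lower in all 3 Calr KO libraries, at 4379 ± 141 against 10653 ± 426 normalised counts in control cells (SD, n = 3 each; log2 change -1.28, SE 0.039, limma adjusted p = 7.9e-07). Neither edited alleles nor calreticulin protein was measured, and Calr reads were present in each Calr KO well. The libraries summed to between 14040692 and 14099985 normalised counts. The members made up 0.518% to 0.531% of these in Calr KO and 0.535% to 0.548% in control cells, ranges that did not overlap. This sum is weighted towards abundant members, above all Flna, with a mean of 12112 in Calr KO and 12875 in control cells. Of 7 lung epithelial markers, Krt8 and Krt18 reached the test, with Krt8 at 4770 ± 136 in Calr KO and 4472 ± 143 in control cells, while Epcam, Krt19, Nkx2-1 and Sftpc were listed at 0 in every library. The epithelial list summed to 4961 to 5240 in Calr KO and 4632 to 4932 in control libraries. The 6 fibroblast markers summed to 22955 to 24561 in Calr KO and 22223 to 23124 in control libraries, carried by Col3a1 and Pdgfra. For 7 macrophage markers the sums were 195 to 255 in Calr KO and 187 to 232 in control libraries, with Adgre1 at 0. For 6 lymphocyte markers they were 7.16 to 9.74 in Calr KO and 0 to 6.22 in control libraries, with Cd3e at 0. For 5 endothelial markers they were 47.2 to 61.4 in Calr KO and 38.3 to 51.0 in control libraries. Genes of the mitochondrial genome held 2.89% to 2.97% of the values in Calr KO and 2.78% to 2.80% in control libraries. Krt8 and Krt18 overlapped between the groups and did not pass (limma adjusted p = 0.525 and 0.766). The lymphocyte sums stayed under 10 in every library, so no gene of that list was tested. The part of the epithelial, lymphocyte and mitochondrial differences in the results was not tested.

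No integrin or focal adhesion gene passed the test between Calr KO and control cells. Of the 39 members, 34 had a mean of at least 10 normalised counts and were tested, and 0 passed in either direction over all 13199 genes tested, where 0.280% passed (limma, Benjamini-Hochberg adjusted p under 0.05). Before adjustment, 10 of the 34 had a p under 0.05, or 29.4%, against 8.88% of all tested genes. Of these, 8 were lower and 2 higher in Calr KO, against 4.28% lower and 4.60% higher among all genes. Over all 34 tested members there was no such lean. The log2 change was above 0 for 17 and below 0 for 17, with a median of -0.00013. The group values did not overlap for 14 of the 34, with Calr KO below in 10 and above in 4, against 14.8% of all tested genes, of which 7.28% had Calr KO below and 7.57% above.

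Most members are abundant and their differences were small. Among the 29 members with a mean of at least 500, the log2 changes lay between -0.24 and 0.16. None reached 1.2-fold, as 2.47% of tested genes of that level did. With so low a share, none among 29 genes does not set the members apart. At that level 12.0% of all tested genes had an unadjusted p under 0.05 and 17.4% had groups that did not overlap, against 34.5% and 41.4% of these members. Of the 29, 8 had such a p and were lower, against 5.97% of the tested genes at that level; the cutoff was chosen after the values were seen. The members' shares stood above the background and were not tested since the list was drawn up with earlier results of these data known. With 1 variance prior shared by genes of every level (a single variance prior), 6 members had an unadjusted p under 0.05. Leaving out each library in turn gave 8 to 12.

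The alpha chains present were mainly those that bind laminin and RGD-containing ligands such as fibronectin. Per kilobase of merged exon length, Itga6, a laminin receptor chain, was highest, at 542 ± 33.3 normalised counts in Calr KO wells and 537 ± 5.12 in control wells. Itga3, which also pairs with beta1 to bind laminin, followed at 411 ± 37.9 in Calr KO and 436 ± 62.6 in control cells. Itga5, the fibronectin receptor chain, had 295 ± 18.2 in Calr KO and 297 ± 17.9 in control cells. The vitronectin receptor chain Itgav was at 233 ± 4.42 in Calr KO and 245 ± 13.4 in control cells, and the laminin receptor chain Itga7 at 150 ± 9.55 in Calr KO and 177 ± 7.88 in control cells. The collagen receptor chain Itga1 was the lowest of these, at 34.2 ± 1.38 in Calr KO and 33.7 ± 1.57 in control cells. In this order each gene's lowest library lay above the highest library of the next. Per kilobase of coding sequence Itgav moved to the second place, at 819 against 755 for Itga3.

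The remaining alpha chains were near the limit of detection. Itga2, Itga4 and Itga11, which bind collagen, VCAM1 with fibronectin, and fibrillar collagen, lay between 0.218 and 2.25 normalised counts per kilobase over all libraries and overlapped one another. Itga8 was listed at 0, 0 and 0 in Calr KO and at 2.99, 1.03 and 0 normalised counts in control libraries. Itga9 was listed at 0 in all Calr KO libraries and at 0, 3.10 and 0 in control libraries. With Itga11 these genes were under the mean of 10 and were not tested.

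**Figure D1:**
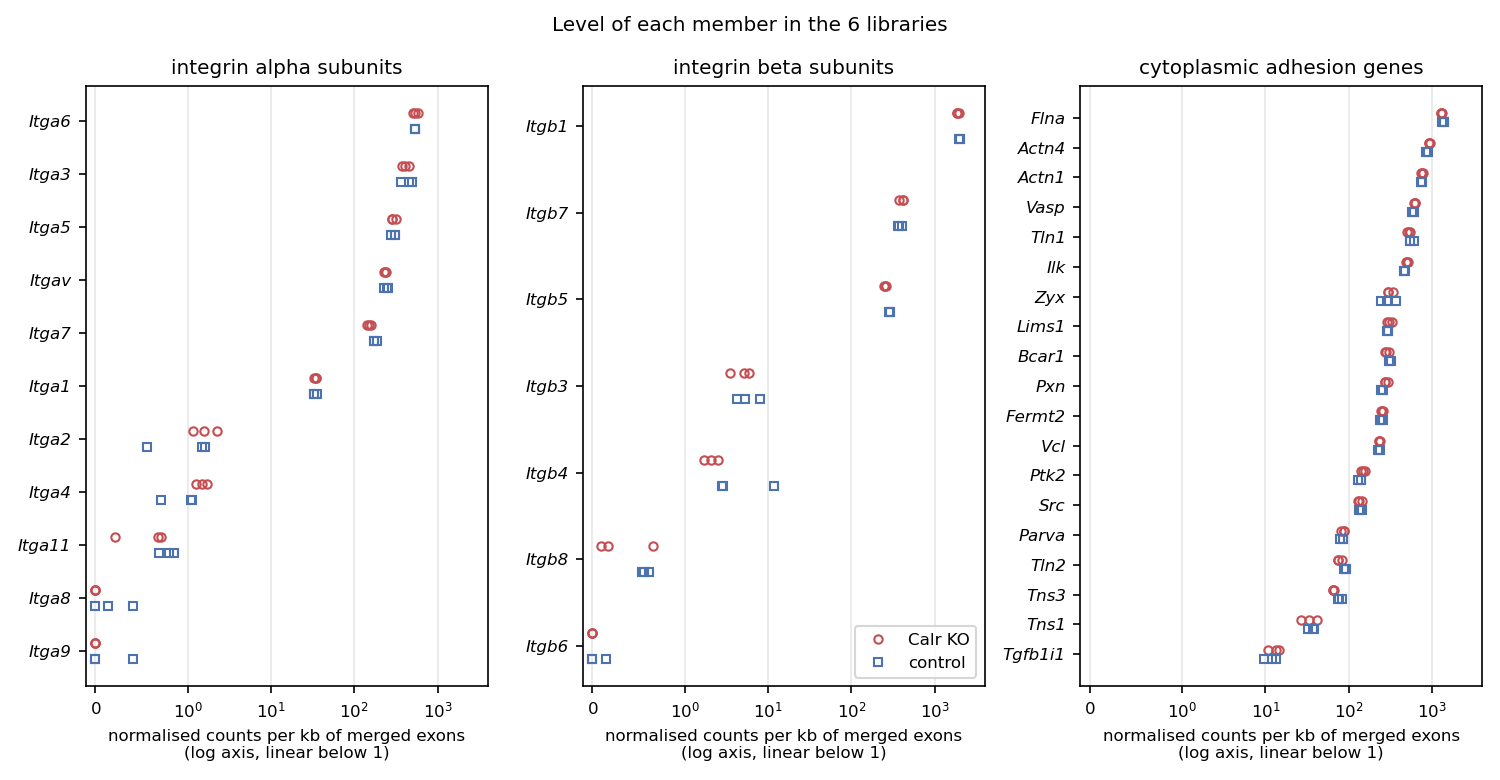
Level of each alpha chain, beta chain and cytoplasmic adhesion gene in normalised counts per kilobase of merged exons, on a log axis that is linear below 1; circles are the 3 Calr KO libraries, squares the 3 control libraries, and genes run from the highest to the lowest mean. The groups lie close together from Flna and Itgb1 down to Itga1, and spread at the low end, where Itgb4 in control replicate 1 stands at 11.7 per kilobase.

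Itga7 had the smallest p of the alpha chains. This gene (ENSMUSG00000025348.9, chromosome 10, plus strand, 128933818 to 128958282, GRCm38) had 1140.0, 1294 and 1203 normalised counts in Calr KO libraries, against 1401, 1508 and 1394 in control libraries. All 3 Calr KO values were below all 3 control values. The log2 change was -0.24 (SE 0.062, 95% interval -0.38 to -0.10), and the limma adjusted p of 0.270 did not pass. Of the summed alpha level per kilobase, Itga7 held 8.97% ± 0.292 in Calr KO and 10.3% ± 0.209 in control cells.

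Itga6, Itga3, Itga5 and Itga1 had overlapping groups and intervals that spanned 0. Itga6 had 4902, 5194 and 4592 normalised counts in Calr KO, against 4820.3, 4902 and 4823 in control libraries. The control values lay within the Calr KO range, and the log2 change was 0.012 (95% interval -0.089 to 0.11, limma adjusted p = 0.963), with its sign turned without Calr KO replicate 2. Itga3 had 2156, 2305 and 2582 in Calr KO, against 2572, 2799 and 2098 in control libraries, with overlapping groups and a change of -0.079 (-0.31 to 0.15, adjusted p = 0.867). Without control replicate 2 its change was 0.011. Itga5 differed by -0.0098 (-0.16 to 0.14, adjusted p = 0.980), and its sign turned when either the first or the third Calr KO well, or the second or the third control well, was left out. Itga1 differed by 0.021 (-0.13 to 0.18), and its sign turned without control replicate 3.

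Itgav and the low chains complete the group. Itgav had 2492, 2459 and 2552 normalised counts in Calr KO, against 2754, 2664 and 2472 in control libraries, with overlapping groups and a log2 change of -0.071 (95% interval -0.18 to 0.038, adjusted p = 0.738). Itga4, the chain that binds VCAM1, had 20.8, 17.4 and 23.9 in Calr KO, against 9.96, 15.5 and 15.4 in control libraries. Its groups did not overlap, but the change of 0.58 had an SE of 0.32 (adjusted p = 0.657). Itga2 had 16.1, 11.3 and 8.30 in Calr KO, against 3.99, 11.4 and 10.6 in control libraries, with overlapping groups and a change of 0.48 (SE 0.48, adjusted p = 0.825). Over the 8 alpha chains tested the median change was 0.0012, with 4 above and 4 below 0, and over all tested genes it was 0.00036.

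Itgb1, the shared partner of most alpha chains, accounted for most beta chain transcript. Per kilobase it held 74.1% ± 1.2 of the summed beta level in Calr KO and 74.6% ± 0.856 in control cells. Its level per kilobase was 1889 ± 40.7 in Calr KO and 2001 ± 32.0 in control cells. The summed beta level was 2549.8 ± 14.2 in Calr KO and 2683 ± 15.7 in control cells, with no overlap. This beta sum mainly follows Itgb1 and is not a separate result for the beta chains as a group. The summed alpha level was 1669 ± 52.0 in Calr KO and 1729 ± 81.4 in control cells, with overlap. Itgb7 followed at 402 ± 26.2 in Calr KO and 382 ± 22 in control cells, and Itgb5 at 252 ± 5.47 in Calr KO and 288 ± 3.37 in control cells, each clear of its neighbours in all libraries. Itgb3 and Itgb4 overlapped each other and reached at most 11.7 per kilobase. Itgb8 (1.89, 1.03 and 7.27 normalised counts in Calr KO, against 5.98, 6.21 and 6.75 in control libraries) and Itgb6 (listed at 0 except 1.03 in control replicate 2) were not tested.

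Itgb1 (ENSMUSG00000025809.15, chromosome 8, plus strand, 128685654 to 128733200) had 7637, 7590.4 and 7898 normalised counts in Calr KO, against 8225, 8017 and 8258 in control libraries. All Calr KO values were below all control values, by 5.62% on average. The log2 change was -0.083 (SE 0.029, 95% interval -0.15 to -0.018), and the limma adjusted p of 0.463 did not pass. Itgb5, which joins alphav in a vitronectin receptor (ENSMUSG00000022817.15, chromosome 16, plus strand, 33829665 to 33949338), had 877, 915 and 890.3 in Calr KO, against 1021, 1013 and 1037 in control libraries. These groups were separated by more than the range within either. The change was -0.20 (SE 0.053, 95% interval -0.31 to -0.076), or 12.7% lower, with an adjusted p of 0.307.

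Itgb7, a beta chain known from lymphocytes, where it pairs with alpha4 or alphaE, was the second beta chain in level. It had 1153, 1158 and 1029.9 normalised counts in Calr KO, against 1046, 1122 and 1002 in control libraries. The groups overlapped, and the log2 change was 0.075 (95% interval -0.079 to 0.23, adjusted p = 0.801). Its partners were low, with Itga4 given above and Itgae at 9.44, 16.4 and 6.24 in Calr KO, against 16.9, 8.27 and 14.5 in control libraries. The summed macrophage markers reached 255 in Calr KO and 232 in control libraries, and the summed lymphocyte markers 9.74 in Calr KO and 6.22 in control libraries. The part of such cells in the Itgb7 level was not tested.

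Itgb4, the hemidesmosome chain that pairs with alpha6, had the largest fitted difference among the members and rested on 1 library. It had 11.9, 14.4 and 17.3 normalised counts in Calr KO, against 82.1, 20.0 and 19.7 in control libraries. The log2 change was -1.11 (SE 0.51, adjusted p = 0.580), and it was -0.44 without control replicate 1. Itgb3 had 20.8, 34.9 and 30.1 in Calr KO, against 30.9, 47.6 and 25.1 in control libraries. Its groups overlapped, and the change of -0.24 (SE 0.31) became 0.0066 without control replicate 2. Of the 5 beta chains tested, 4 were below 0, with a median of -0.20.

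Cd44, the hyaluronan receptor, was lower in every Calr KO library with little spread. This gene (ENSMUSG00000005087.17, chromosome 2, minus strand, 102811141 to 102901665) had 4476, 4501 and 4465 normalised counts in Calr KO, against 4790.1, 4761 and 4824 in control libraries. The gap between the groups was wider than the range within either. The log2 change was -0.097 (SE 0.030, 95% interval -0.16 to -0.029), or 6.5% lower, with a limma adjusted p of 0.381. L1cam, a cell adhesion molecule of neurons and tumours, had 558, 545 and 467 in Calr KO, against 559.6, 599 and 574 in control libraries. Its groups nearly touched, and the change was -0.15 (SE 0.085, adjusted p = 0.685).

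Every cytoplasmic adhesion gene on the list was expressed and tested. Per kilobase, the actin crosslinker filamin A (Flna) was highest, at 1288 ± 20.6 normalised counts in Calr KO wells and 1369.6 ± 34.3 in control wells. The alpha-actinins followed, with Actn4 at 930.2 ± 20.3 in Calr KO and 873 ± 21.2 in control cells, and Actn1 at 762 ± 27.0 in Calr KO and 749 ± 13.7 in control cells. At the low end were the tensins Tns3 and Tns1 and the paxillin relative Tgfb1i1, the last at 12.9 ± 1.93 in Calr KO and 11.7 ± 1.81 in control cells. Neighbours in the order overlapped in their libraries except at the steps from Flna to Actn4, to Actn1 and to Vasp, from Ilk to Zyx, from Vcl to Ptk2, from Src to Parva, and from Tns3 to Tns1 and to Tgfb1i1. Per kilobase of coding sequence Actn4 came first, at 1975 against 1573 for Flna.

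Among the linkers between integrins and actin, talin 2, tensin 3 and filamin A had lower values in Calr KO, and alpha-actinin 4 had higher ones. Tln2, the less abundant of the talins that bind beta tails (ENSMUSG00000052698.15, chromosome 9, minus strand, 67217087 to 67559703), had 1358, 1364 and 1528 normalised counts in Calr KO, against 1615, 1716 and 1666 in control libraries. The groups did not overlap, and the log2 change was -0.24 (SE 0.059, 95% interval -0.37 to -0.10). Its limma adjusted p of 0.259 was the smallest among the members. Tns3, which links the beta tail to actin (chromosome 11, minus strand, 8431652 to 8664535), had 752, 724 and 735 in Calr KO, against 929, 827 and 852 in control libraries. It also showed no overlap, with a change of -0.24 (SE 0.065, -0.38 to -0.090, adjusted p = 0.314).

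Flna (chromosome X, minus strand, 74223461 to 74249820) had 12045, 11961 and 12330.1 normalised counts in Calr KO, against 13093, 13028 and 12504 in control libraries. The highest Calr KO value lay just under the lowest control value, and the log2 change was -0.088 (SE 0.027, 95% interval -0.15 to -0.026, adjusted p = 0.381). Actn4 (chromosome 7, minus strand, 28893248 to 28962340) had 5683, 5831 and 5584 in Calr KO, against 5264, 5497 and 5281 in control libraries. Here Calr KO was above control in every pair of libraries, and the change was 0.092 (SE 0.033, 0.017 to 0.17, adjusted p = 0.476). Its relative Actn1 had 4266, 4051 and 4338 in Calr KO, against 4215, 4152 and 4065 in control libraries, with overlapping groups and a change of 0.025 (-0.060 to 0.11).

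The transcript of vinculin, the linker whose level has been tied to calreticulin in fibroblasts, was nearly the same in both groups of LLC cells. Vinculin protein was not measured, and Calr transcript remained in the Calr KO wells. Vcl had 1922, 1962 and 1887 normalised counts in Calr KO, against 1869, 1892 and 1972 in control libraries. The groups overlapped throughout, and the log2 change was 0.0095 (95% interval -0.090 to 0.11, limma adjusted p = 0.971). The sign turned without Calr KO replicate 2 or control replicate 1, and when libraries were rescaled to a common upper quartile (-0.0011). Of its 8191 merged exon bases, 2090 are shared with Ap3m1 on the other strand, and no strand setting is given in the sources used here. The main talin, Tln1, differed by -0.094 (-0.21 to 0.019), and Tns1 by -0.12 (-0.43 to 0.20), whose sign turned without Calr KO replicate 1.

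The complex of ILK, PINCH and parvin, which ties beta tails to actin together with kindlin, had values slightly above control in each gene. Ilk, the pseudokinase at its centre, had 1365, 1341 and 1434 normalised counts in Calr KO, against 1285, 1257 and 1302 in control libraries. Its groups did not overlap, and the log2 change was 0.11 (SE 0.050, 95% interval -0.0069 to 0.22, limma adjusted p = 0.591). Of its 2744 merged exon bases, 2461 are shared with Taf10 and Rrp8 on the other strand, so reads of the 3 genes may not be told apart. Lims1, which encodes PINCH1, differed by 0.059 (-0.075 to 0.19), the parvin gene Parva by 0.045 (-0.093 to 0.18) and the kindlin gene Fermt2 by 0.020 (-0.098 to 0.14), each with overlapping groups. The sign of Fermt2 turned without control replicate 2.

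The adaptors paxillin and p130Cas, both substrates of FAK and SRC, had differences of opposite sign. Pxn, encoding paxillin (ENSMUSG00000029528.18, chromosome 5, plus strand, 115506676 to 115555987), had 2253, 2234 and 2446 normalised counts in Calr KO, against 2021, 2140.5 and 2052 in control libraries. The Calr KO values were all higher, with a log2 change of 0.16 (SE 0.050, 95% interval 0.045 to 0.27, adjusted p = 0.394). Bcar1, encoding p130Cas (chromosome 8, minus strand, 111710474 to 111743809), had 1257, 1371 and 1276 in Calr KO, against 1471, 1437 and 1385 in control libraries. Its Calr KO values were all lower, with a change of -0.14 (SE 0.054, -0.26 to -0.015, adjusted p = 0.509). The kinase genes overlapped between groups: Ptk2, encoding FAK, differed by 0.11 (-0.020 to 0.24), and Src by -0.028 (-0.19 to 0.13), whose sign turned without Calr KO replicate 3.

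Zyxin varied widely between wells. Zyx, a LIM protein of mature adhesions, had 1856, 1609 and 1597 normalised counts in Calr KO, against 1316, 1555 and 1998 in control libraries. The control values reached beyond the Calr KO values on both sides, with a log2 change of 0.074 (95% interval -0.22 to 0.37) that ranged from -0.066 without control replicate 1 to 0.23 without control replicate 3. Its partner in actin assembly, Vasp, differed by 0.050 (-0.060 to 0.16). Tgfb1i1, encoding Hic-5, differed by 0.14 (-0.29 to 0.57) from a mean of 68.5.

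**Figure D2:**
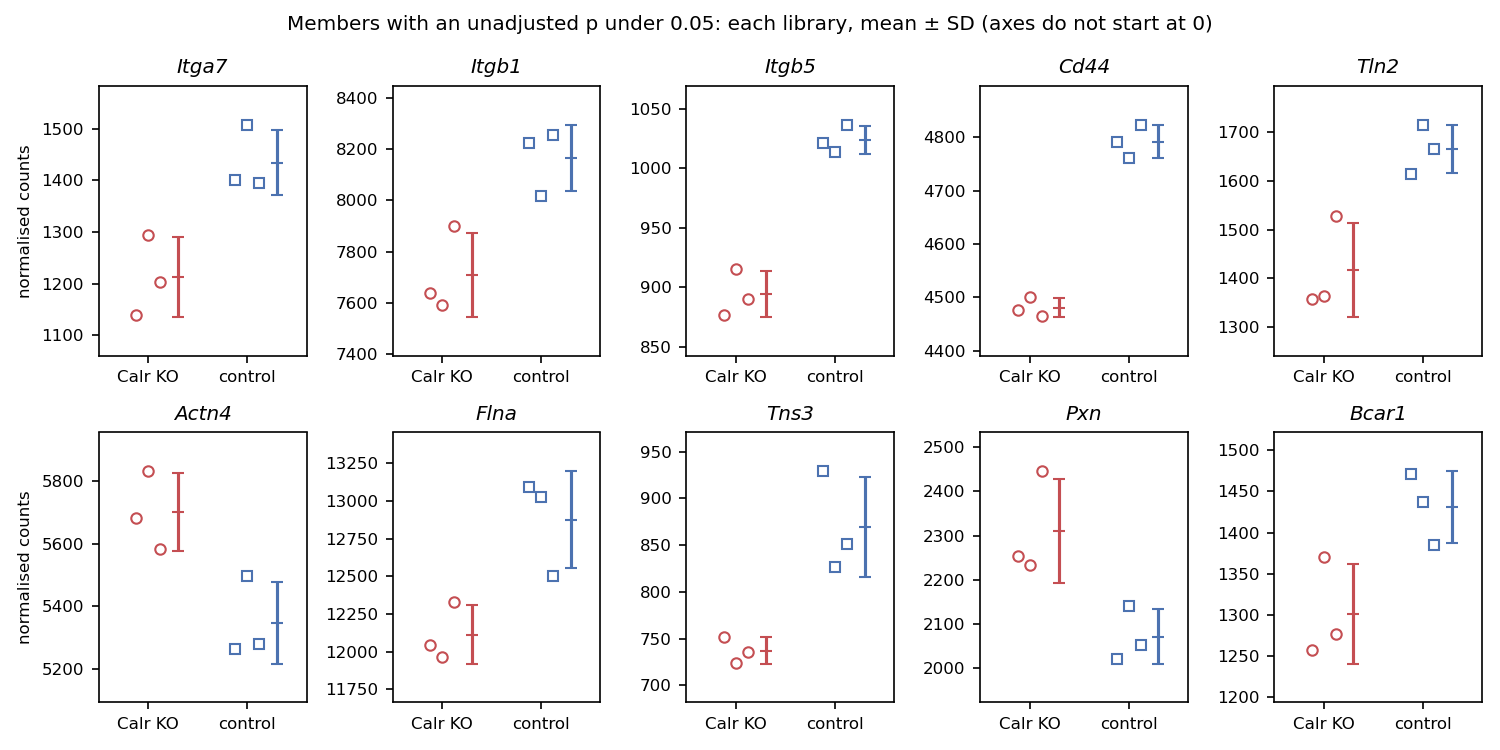
Normalised counts of the 10 members with an unadjusted p under 0.05, with 3 Calr KO libraries (circles) left of 3 control libraries (squares) and the mean ± SD beside each group; each panel has its own axis, which does not start at 0. In every panel the groups do not overlap, with Calr KO higher for Actn4 and Pxn and lower for the other 8 genes.

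Integrins and cytoplasmic adhesion genes were set side by side. Of 13 integrins tested, 0 passed, 3 had an unadjusted p under 0.05, all lower, and the median log2 change was -0.071. Of 19 cytoplasmic genes 0 passed, 6 had such a p, with 2 higher and 4 lower, and the median was 0.025. These counts are 23.1% of the integrins and 31.6% of the cytoplasmic genes. Among all tested genes 8.88% had such a p, 4.28% lower and 4.60% higher, and 12.0% of those with a mean of at least 500. The medians differed by -0.096. For scale, log2 values were centred on each gene's group mean. The integrin median minus the cytoplasmic median then varied between replicate libraries with an SD of 0.054, which is not an error of the -0.096. Without control replicate 2 the integrin median was 0.011 and the difference -0.0016, so the difference rested on that library.

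**Figure D3:**
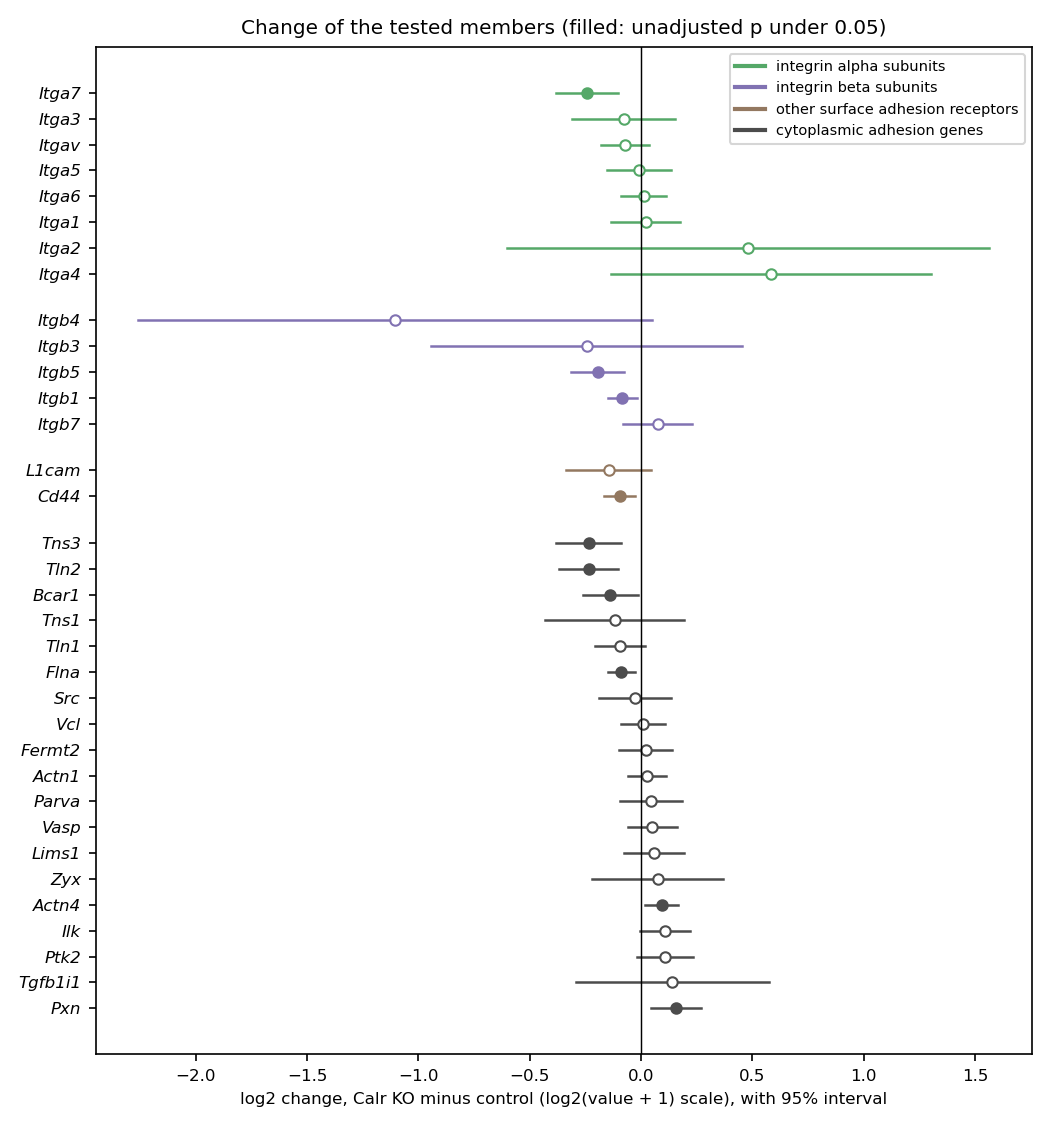
Log2 change (Calr KO minus control) of the 34 tested members with its 95% interval, by group and in order of size; filled points have an unadjusted p under 0.05. Points of abundant genes lie between -0.24 and 0.16, and the longest 4 intervals belong to Itga2, Itga4, Itgb3 and Itgb4, which have means of 10.3 to 31.6 normalised counts.

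The wider adhesion pathway was covered by 9 further lists with 152 genes, of which 125 were tested. One of these rose and 1 fell, both laminin chains in the list of integrin ligands, against 0.197% of all tested genes higher and 0.0833% lower. The lists were drawn up with earlier results of these data known, so their counts were not tested against such shares. Lama3, the alpha chain of epithelial laminins bound by alpha3beta1 and alpha6beta4, had 1519.6, 1501 and 1439 normalised counts in Calr KO, against 536, 572 and 612 in control libraries (log2 change 1.38, adjusted p = 1.64e-05). Lamb1, a widely used laminin beta chain, had 8226, 8129 and 7763 in Calr KO, against 10786, 11069 and 11142 in control libraries (log2 change -0.45, adjusted p = 0.000177, and 0.147 with a single variance prior). The laminin receptor chains Itga3, Itga6 and Itga7 did not pass, with changes of -0.079, 0.012 and -0.24.

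Among all tested genes 8.88% had a limma unadjusted p under 0.05, with 4.60% higher and 4.28% lower. The share was 12.0% for those with a mean of at least 500. Over all 9 lists, 18 of the 125 tested genes had such a p, or 14.4%, with 10 higher and 8 lower. By list these were 6 of 18 integrin ligands (2 higher and 4 lower), 4 of 20 further adaptors (all higher), 2 of 9 activation and inactivation genes and 2 of 22 FAK and SRC effectors (1 each way in both), 1 each of the contractility and hemidesmosome genes (higher), 1 each of the membrane partners and the SRF and YAP targets (lower), and 0 of the 5 further subunits. The lists other than the ligands held no passing gene. The 18 tested integrin ligands had a median log2 change of -0.050, and the 15 tested SRF and YAP targets, genes that respond to actin tension, one of -0.12 with 12 below 0. Among these targets Axl differed by -0.14 (adjusted p = 0.270) and Cnn3 by 0.032. The 20 further adhesion adaptors had a median of 0.060; the filamin gene Flnc differed by 0.095 and Enah by -0.038. The 9 genes of integrin activation and inactivation had a median of -0.0016, with Rap1a at 0.16 (adjusted p = 0.435) and Rap1b at -0.039.

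FAK and SRC effectors, contractility genes and membrane partners centred near 0. Their medians were -0.011 over 22, -0.0040 over 20 and 0.0047 over 13 genes, with Cdc42 at -0.0091, Rhoa at -0.034, Actb at 0.021, Cfl1 at 0.023, Bsg at -0.057 and Cd63 at 0.018. The 4 hemidesmosome genes had a median of 0.044, with Plec at 0.088 and Dst at -0.000016. The further integrin subunits, mostly leukocyte chains, were low, at a mean of at most 114 normalised counts. The 5 that were tested had a median of -0.24, with Itga10 at -0.068 and Itgb2 at -0.24 (adjusted p = 0.814).

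**Figure D4:**
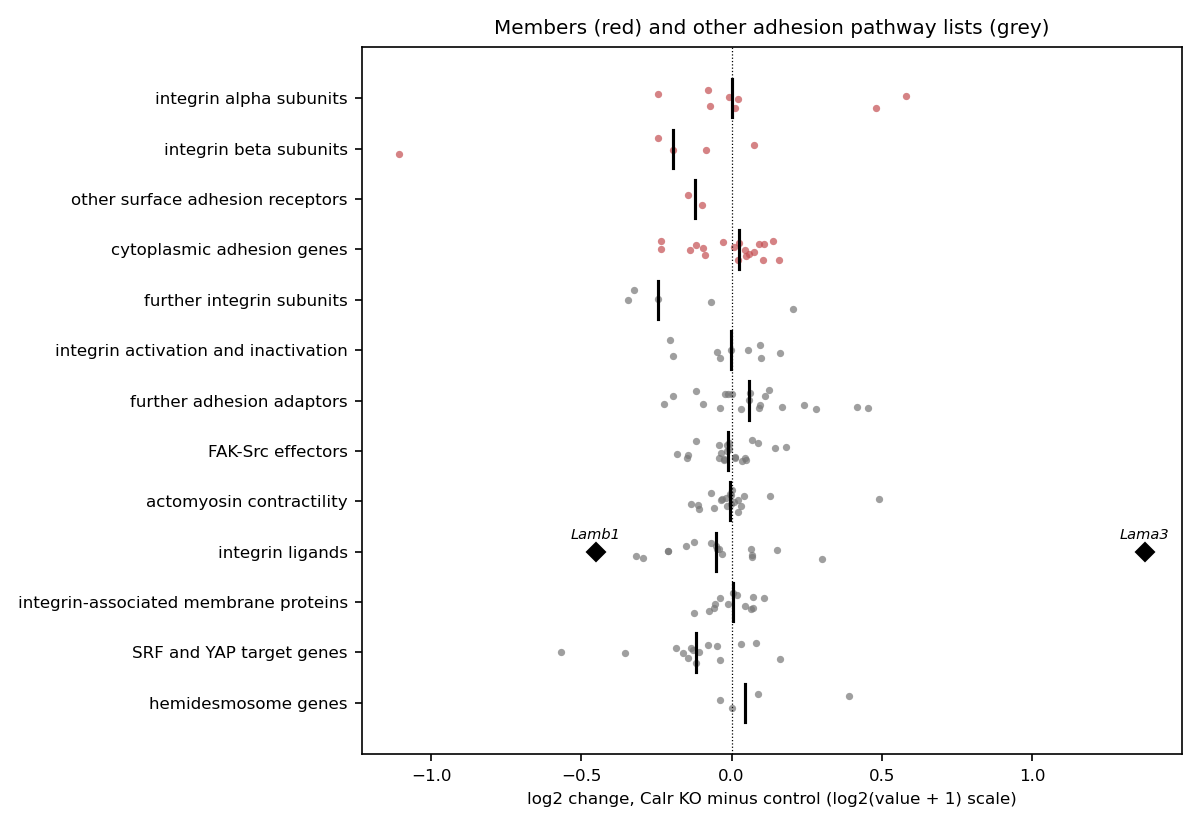
Log2 change (Calr KO minus control) of each tested gene in the member groups (red) and the other adhesion lists (grey), with a vertical bar at each list's median and diamonds at genes with an adjusted p under 0.05. The diamonds are Lama3 at 1.38 and Lamb1 at -0.45, both in the list of integrin ligands.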

How the data were processed

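RNA was sequenced from 3 Calr KO and 3 control wells with a SMARTer mRNA-seq kit, per the labels' protocols. The values are a deposited signal, for each gene its counts after DESeq2 normalisation by the authors, per the labels and the table's name. Without roles or order, DESeq2 1.34.0, Salmon 0.14.1, STAR 2.6.1d and build mm10 are listed in the submitters' processing notes; which annotation release was used is not given there. Only 3.44% to 4.31% of values at 100 to 1000 reads came out as whole reads within 0.02, so reads were not recovered and no count model was run.

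Genes with a mean of at least 10 were fitted in limma 3.58.1 (R 4.3.3) on log2(value + 1). The test was two-sided, with its variance prior following mean level, and Benjamini-Hochberg adjustment over all 13199 tested genes at 0.05. Fold changes on that scale are too small for low genes. The fit was checked on simulated data with set changes of 1.2-fold and more. A rate of detection was required only for the largest changes set, so the check does not vouch for detection at 1.2-fold. Smaller changes, such as those of the abundant members, were not covered by that check. Intervals are at 95% and unadjusted. Gene models and lengths are from GENCODE M21 on GRCm38, the assembly of mm10, in which 96.4% of the symbols and all 39 members were found. Named genes are those with an adjusted p under 0.05, up to 4 per group with the smallest adjusted p and up to 3 with the highest level, Cd44 and L1cam; other members are given by value. Each pathway list gives its passing genes or up to 2 of the highest mean. The members and lists were chosen with earlier results of these data known. Alternatives were other pseudocounts, filters, scalings and variance priors, the replicate number as a block, coding length, and leaving out each library.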

Additional observations from a re-analysis of the deposited data

How the results depend on the processing

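No member passed the test in any of the 15 alternative fits, and the lowest adjusted p was 0.150, for Tln2 without Calr KO replicate 3. The sign of 24 of the 34 members was kept throughout. When each library was left out in turn, the log2 changes ranged from -0.0058 to 0.058 for Itga1, -0.20 to 0.011 for Itga3, -0.060 to 0.023 for Itga5, -0.031 to 0.058 for Itga6, -0.44 to 0.0066 for Itgb3, -0.011 to 0.049 for Fermt2, -0.071 to 0.0065 for Src, -0.27 to 0.033 for Tns1, -0.0063 to 0.033 for Vcl and -0.066 to 0.23 for Zyx, none of which passed. With a common upper quartile Vcl was at -0.0011. With a single variance prior, 2 genes passed over all genes in place of 37, 1 of the integrin ligands in place of 2 (Lama3, with Lamb1 lost), and 6 members had an unadjusted p under 0.05 in place of 10; the cause was not tested. Without 1 library, 20 to 34 genes passed over all genes, the fewest (20) when Calr KO replicate 1 was missing; the count was 21 without the third Calr KO well, 22 without the second control well and 22 without the third. With no filter on low values, which adds the integrins near 0, the integrin median was -0.14 and its difference from the cytoplasmic genes -0.16; leaving out a library gave -0.086 to 0.011 and -0.11 to -0.0016. Per kilobase of coding sequence 22 of 37 genes kept their rank within their group. Same-numbered libraries did not deviate together (correlations -0.056, -0.011 and 0.0015). This gave no sign of pairing by number but cannot exclude that wells were handled in pairs. With the replicate block 26 genes passed over all genes and 0 members. The SEs were 0.31 to 0.51 for Itga2, Itga4, Itgb3 and Itgb4, which had means of 10.3 to 31.6 normalised counts, against at most 0.139 for members with a mean of at least 500; the part of depth was not tested, and for Itgb4 control replicate 1 stood at 82.1.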

Other observations

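Osteopontin (Spp1), a secreted ligand of alphav integrins, came close to the threshold; it was singled out after its values were seen. It had 21294, 21661 and 21981 normalised counts in Calr KO, against 23669, 23401 and 23660.5 in control libraries. All Calr KO values were below all control values, and the log2 change was -0.12 (limma adjusted p = 0.0629). Over the 15 alternative fits its adjusted p ranged from 0.0434, with libraries rescaled to a common upper quartile, to 0.594, with a single variance prior. Tns2, a tensin also named after its values were seen, had 842, 838 and 1178 in Calr KO, against 739, 731 and 644 in control libraries, with a log2 change of 0.42 (SE 0.13, adjusted p = 0.367).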
